A study of Homo sapiens with 24 samples.

Results

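The cytosolic ribosomal proteins are the protein parts of the ribosomes that translate messenger RNAs made in the nucleus. They were taken here as every row of the deposited gene table whose symbol is RPL or RPS followed by a number, with at most a letter and a digit after it, together with RPLP0, RPLP1, RPLP2 and RPSA, and without the Y-linked copies of RPS4. This rule reads symbols only and no measured value, and it took 90 of 22446 rows. Of these, 77 are the core genes of the ribosome, 46 for the large and 31 for the small subunit. A further 7 are paralogs, which are expressed second copies with a protein of their own (RPL3L, RPL7L1, RPL10L, RPL22L1, RPL26L1, RPL39L and RPS27L), and 6 are pseudogenes (RPL13P5, RPL23P8, RPL29P2, RPL32P3, RPS10P7 and RPS7P5). FAU, RPL36AL and GNB2L1 also encode parts of the ribosome, but their symbols lie outside the rule and they are described apart.

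The RNA came from A2780, a line of human epithelial ovarian cancer cells, kept in normal oxygen (normoxia) or in 1% oxygen (hypoxia). There were 6 groups of 2 libraries: at 6 hr libraries 1 and 2 had normal oxygen while 3 and 4 had 1%, at 48 hr the pair 5 and 6 had normal oxygen while 7 and 8 had 1%, and at 6 days these were 9 and 10 for normal oxygen with 11 and 12 for 1%. All groups shared RPMI 1640 medium with 10 to 15% fetal bovine serum, gentamicin and 5% CO2, and ribosomal RNA was depleted before sequencing. Whether the paired libraries of a group are separate cultures is not in the labels, and the p-values therefore reflect library-to-library spread that may be technical. All values come from 1 cell line, and each normoxia group is the control for hypoxia at its own time.

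A ribosome holds a single copy of nearly every core protein, so cells make these proteins in matched amounts and degrade those left without a place. Their messenger RNAs are among the most abundant in growing cells and carry a 5′ terminal oligopyrimidine tract (TOP), a C at the cap followed by an unbroken run of C and T. When mTORC1, a kinase that senses nutrients and growth signals, is turned down, for example by the hypoxia-induced protein DDIT4, TOP messenger RNAs are stored and translated less, largely without being destroyed. RNA levels such as those measured here therefore say nothing of how much ribosomal protein was made.

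Promoter windows show where pyrimidine tracts lie near the annotated starts of the members that the results turn on. RefSeq on GRCh38.p14 holds a promoter entry for 67 of the 90 members, 62 of them core genes. The submitters' processing notes name hg19, another assembly, so these coordinates belong to the RefSeq table and not to the deposited values. A C at the annotated start followed by at least 4 more pyrimidines was found in 46 of the 62 core genes (74.2%), against 5.14% of the 27305 genes of the table. With a tract that begins within 5 bases of the start, the share was 85.5% of core genes against 25.2%. Of 5 paralogs with an entry, only RPL22L1 had such a tract. The windows below run 5′ to 3′ on the strand of the gene, 15 bases before the start and the first 15 transcribed bases. Capitals mark the longest run of at least 5 pyrimidines that begins with a C within 5 bases of the start. For genes with several annotated starts, such as RPL10 and RPS19, the entry with the longest such run is shown. From the start itself the run of RPL3 has 4 pyrimidines, and RPL4 and RPS28 have no C there. In these 3 genes the capitals do not meet the stricter definition. The first 6 were chosen as genes that moved with time in culture, the next 3 as genes that moved in hypoxia at 6 days, and the last 8 as core genes set beside their paralogs.
RPL3 (chr22:39319609-39319638, minus strand): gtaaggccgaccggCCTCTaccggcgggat
RPL12 (chr9:127451392-127451421, minus strand): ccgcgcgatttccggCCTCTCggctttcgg
RPL41 (chr12:56116618-56116647, plus strand): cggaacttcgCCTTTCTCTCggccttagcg
RPS18 (chr6:33272060-33272089, plus strand): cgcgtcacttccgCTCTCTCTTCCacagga
RPS19 (chr19:41860240-41860269, plus strand): ggaaaccccgtcgttCCCTTTCCCCTggct
RPL36A (chrX:101390996-101391025, plus strand): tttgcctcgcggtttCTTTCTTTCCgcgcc
RPS28 (chr19:8321481-8321510, plus strand): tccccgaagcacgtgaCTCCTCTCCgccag
RPS14 (chr5:150449725-150449754, minus strand): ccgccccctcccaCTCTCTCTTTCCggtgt
RPL4 (chr15:66504841-66504870, minus strand): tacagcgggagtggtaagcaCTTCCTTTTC
RPL22 (chr1:6199581-6199610, minus strand): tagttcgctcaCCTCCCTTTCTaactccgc
RPL22L1 (chr3:170870181-170870210, minus strand): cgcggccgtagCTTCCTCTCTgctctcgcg
RPS27 (chr1:153990747-153990776, plus strand): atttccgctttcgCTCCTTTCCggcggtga
RPS27L (chr15:63157463-63157492, minus strand): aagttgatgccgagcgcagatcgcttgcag
RPL26 (chr17:8383179-8383208, minus strand): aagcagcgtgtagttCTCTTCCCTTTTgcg
RPL26L1 (chr5:172958865-172958894, plus strand): ggcggggcggcggccacaaacccgcaggca
RPL10 (chrX:154398362-154398391, plus strand): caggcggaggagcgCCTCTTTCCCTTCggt
RPL10L (chr14:46651767-46651796, minus strand): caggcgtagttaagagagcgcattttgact
The tract of RPL4 runs on past its window, which shows 10 of its 12 bases. In this table RPL36A, which fell with time in normoxia, has a tract as clear as that of RPL41, which rose.

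RPL3, the member that rose most with time, and RPL22L1, the paralog that fell most, are also shown for the 250 bases before their starts. Both strands were searched for 5 motifs, and the capitals mark the matches. The ETS family motif was spelled CCGGAAG. The motif of the factor YY1 was spelled AAGATGGC. The TATA box was spelled TATAAA, and its match in RPL3 is on the other strand. The GC box was spelled GGGCGG, and the E box, bound by MYC among others, was spelled CACGTG.
RPL3 (chr22:39319624-39319873, minus strand): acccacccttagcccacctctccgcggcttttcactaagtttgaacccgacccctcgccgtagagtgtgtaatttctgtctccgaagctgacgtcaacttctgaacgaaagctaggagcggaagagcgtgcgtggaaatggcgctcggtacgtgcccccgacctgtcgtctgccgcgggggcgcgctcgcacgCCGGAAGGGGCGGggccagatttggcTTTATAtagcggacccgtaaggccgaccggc
RPL22L1 (chr3:170870196-170870445, minus strand): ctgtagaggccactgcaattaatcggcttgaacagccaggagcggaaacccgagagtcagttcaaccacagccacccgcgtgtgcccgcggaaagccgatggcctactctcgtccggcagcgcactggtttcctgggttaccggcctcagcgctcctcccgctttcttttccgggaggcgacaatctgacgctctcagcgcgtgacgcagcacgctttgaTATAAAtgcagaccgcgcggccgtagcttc
Over the 300 bases of each entry, CCGGAAG occurred in 35.5% of core genes against 12.2% of all genes in the table, AAGATGGC in 9.68% against 3.52%, and GGGCGG in 58.1% against 48.3%. TATAAA occurred in 8.06% against 14% and CACGTG in 6.45% against 8.77%. A match is a run of letters and not a shown binding site, and matches of different motifs may overlap.

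The deposited values are RPKM, reads per kilobase of transcript scaled to the reads of the library, which can be set side by side between genes because they are per length. Core genes spanned a wide range: 21 had a mean over the 12 libraries of 300 RPKM or more, 40 lay between 100 and 300, 8 between 40 and 100, and 8 below 40, with a median of 204 RPKM. RPS12 was highest at a mean of 615 RPKM, followed by RPS6, the substrate of the S6 kinases (468), RPS18 (447), the X-linked RPS4X (444) and RPLP0 (425). At the other end stood RPL36A with 3.13 RPKM, RPL27A with 9.12, RPL10 with 15, and RPS26 with 19.7.

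Many core genes have processed pseudogenes with near-identical sequence, and how reads shared with them were counted is not given in the sources used here, so single levels are uncertain. By symbol, the RefSeq gene table holds 137 pseudogene copies of RPL21, 95 of RPL23A and 80 of RPL7A. Whether each copy is processed or near-identical was not checked. Level and number of copies showed no common order over the 77 core genes (Spearman's rho -0.054, a description over genes, which are not replicates). The 8 genes below 40 RPKM had a median of 29.5 copies and the other 69 a median of 16.

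Within a gene the libraries lay much closer together than the genes did. The ratio of the highest to the lowest library ran from 1.23 in RPS16 to 3.52 in RPL3, with a median of 1.75 over the core genes. The summed RPKM of the small subunit was 0.962 to 1.01 times that of the large subunit in every library. All members together made up 1.87 to 2.89% of the summed RPKM, with a median of 2.38%. Short RNAs and the MTRNR2L family held 67.4 to 78.1% of that sum, and without them the members made up 7.95 to 10.5%, lowest in the normoxia libraries at 6 hr and at or above 9.94% in all 4 libraries of 6 days.

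**Figure D1:**
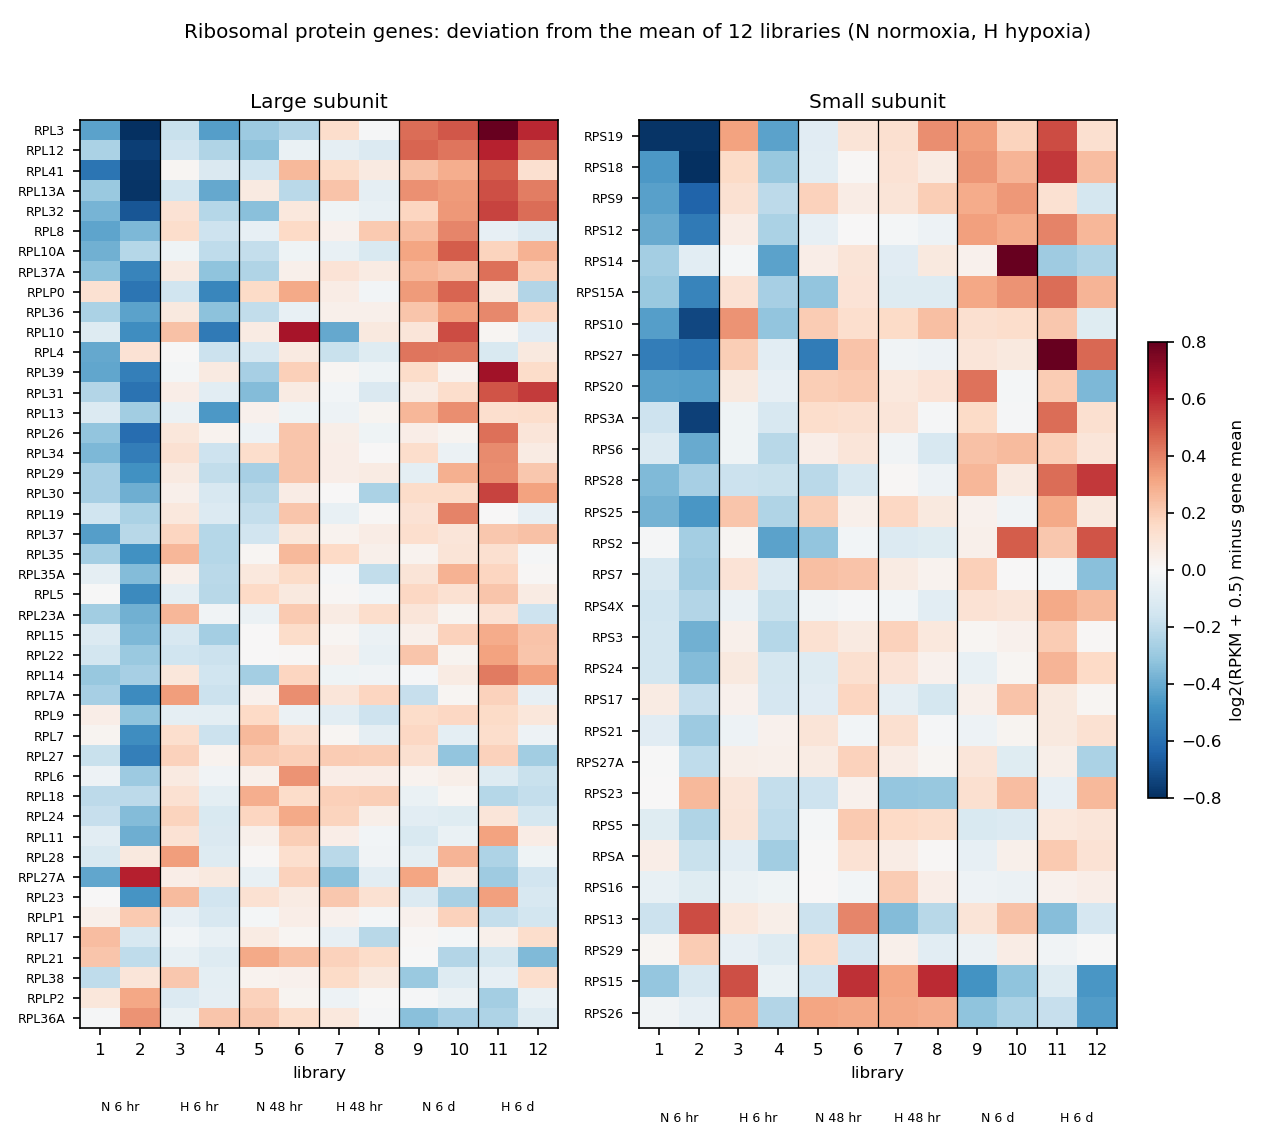
Deviation of log2(RPKM + 0.5) from the mean of 12 libraries for 45 large-subunit (left) and 29 small-subunit (right) core genes, rows sorted by the change in normoxia from 6 hr to 6 days, columns by library, N normoxia and H hypoxia. Library 2 is the bluest column, most genes near the top are red in libraries 9 to 12, and RPL36A and RPS26 at the bottom run the other way; colours stop at 0.8 in either direction.

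In the heat map of core genes by library the 6 day columns stand apart from the normoxia columns of 6 hr, and libraries of the same group also differ. At 6 hr, the median core gene was lower by 0.20 log2 units in library 2 than in library 1, and lower by 0.25 in library 4 than in library 3, with 70 of 77 core genes below. The corresponding gap between the normoxia libraries at 6 days was 0.02, and between the hypoxia libraries 0.11. The other tested rows also shifted at 6 hr, with median differences of -0.14 from library 1 to 2 and -0.06 from library 3 to 4. Core genes thus moved together between replicates, in part along with the other rows. A shift shared by most core genes is not a set of independent changes.

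Depth and identity were checked once for all members. Low values in the second deposited table, of precursor microRNAs, lie on steps that give 25150000 to 51850000 reads per library, so that 1 read on a transcript of 500 bases is worth 0.0386 to 0.0795 RPKM. Whether the gene table was scaled to the same totals is not stated. If it was, every core gene, RPL36A included, was measured well above 1 read. Of 9 epithelial and ovarian markers 3 passed the filter of the test, with a summed level of 61.4 to 79.98 RPKM. Of 5 fibroblast markers 3 passed, with sums of 21.4 to 42.6 RPKM, and no leukocyte, endothelial or hepatocyte marker passed, with sums of at most 0.822 RPKM.

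After 6 hr of hypoxia most ribosomal protein genes lay slightly above normoxia, but very few passed the test. Of 77 core genes, 2 rose and none fell. RPL41, the smallest ribosomal protein and a peptide that bridges the subunits, was among those that rose. Among all 11933 tested rows 3.39% rose and 0.201% fell in the same comparison. The median log2 fold change of the core was 0.21, against 0.04 over all tested rows, and 63 of 77 genes lay above 0. Fold changes are on the scale of log2(RPKM + 0.5), with calls by limma at an adjusted p under 0.05 over all tested rows.

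RPL41 was at 58.6 and 51.2 RPKM in normoxia and at 89.1 and 81.2 in hypoxia at 6 hr. The groups did not overlap, with a log2 fold change of 0.63 (SE 0.15, adjusted p = 0.0496). The call was near the threshold and ended in 10 of 20 alternative settings. No core gene was called higher without library 2, 3, 7, 8, 9 or 10, and without library 3 the log2 fold change of RPL41 was 0.56 (adjusted p = 0.280).

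RPS19, a protein of the small-subunit head whose loss causes Diamond-Blackfan anaemia, was at 71.8 RPKM in both normoxia libraries and at 155 and 92 in hypoxia. Its log2 fold change of 0.73 did not pass the test (adjusted p = 0.0997), and the hypoxia libraries stood further apart than library 4 did from normoxia. RPS27 (0.62) and RPS18 (0.62) were also among the 5 highest, with both hypoxia libraries above both normoxia libraries and no call. The 5 lowest were RPLP2 (-0.29), RPLP1 (-0.22), RPS29 (-0.19), RPS23 (-0.18) and RPSA (-0.12), and none passed.

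In 39 of 77 core genes both hypoxia libraries lay above both normoxia libraries at 6 hr, and in 3 both lay below, against 24.1% and 12.9% of all tested rows. The unadjusted p was under 0.05 for 21 core genes. Here and below, counts at an unadjusted p are given without the share of all rows. They do not by themselves set the core apart. This common shift of 0.21 was no larger than the gap of 0.25 between the hypoxia libraries themselves, and library 2, the lowest of all for these genes, is in the normoxia group. Without library 1 there were 7 higher calls and 1 lower call among the 77, and without library 2 none.

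**Figure D2:**
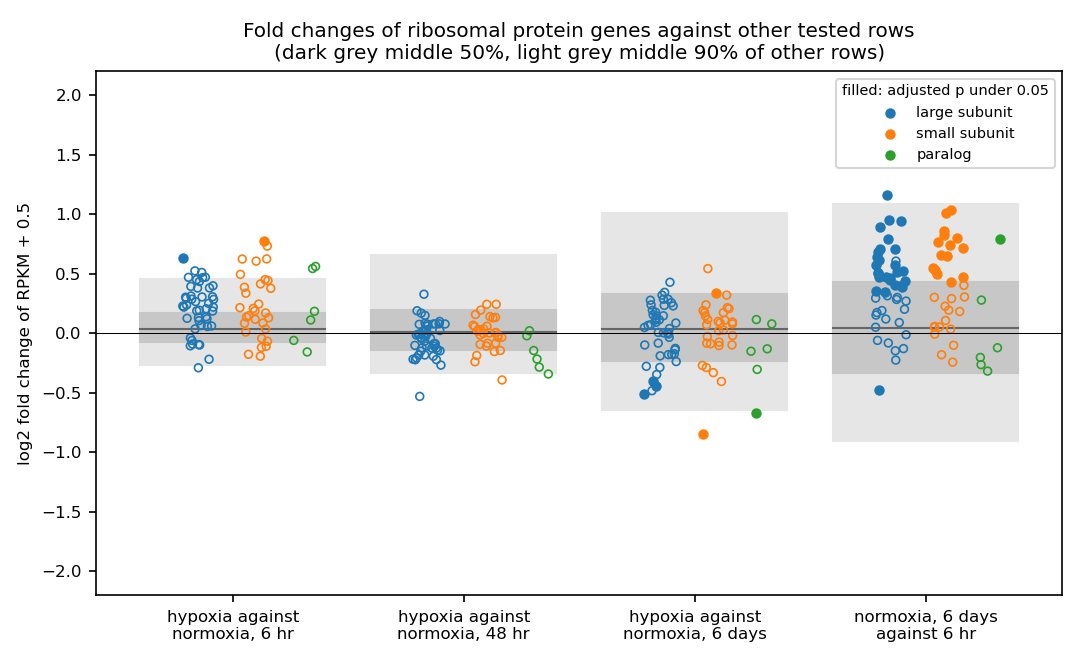
Log2 fold change of RPKM + 0.5 for each large-subunit, small-subunit and paralog gene in 4 comparisons, filled where the adjusted p was under 0.05, over grey bands for the middle 50% and 90% of other tested rows. Most core genes lie above 0 at 6 hr, around 0 with no filled point at 48 hr, around 0 with 1 core point filled above and 4 below at 6 days, and 41 core points are filled in normoxia over time.

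After 48 hr of hypoxia no core gene was called in either direction. None of the 77 passed the test, while 9.24% of all tested rows rose and 2.89% fell, and no core gene had an unadjusted p under 0.05 in limma. The median log2 fold change was -0.02, against 0.01 over all tested rows, and the whole core lay between -0.53 and 0.33. Both hypoxia libraries lay above both normoxia libraries in 10 core genes and below in 20, against 33.3% and 29.6% of all rows. The median core gene differed by 0.11 log2 units between the normoxia libraries of this time and by 0.04 between the hypoxia libraries. None of the alternative settings or left-out libraries gave a core call at 48 hr.

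RPL3, which helps to build the peptidyl transferase centre, stood highest at 48 hr with 207 and 214 RPKM in normoxia and 278 and 251 in hypoxia. The groups did not overlap, but the log2 fold change of 0.33 did not pass (SE 0.18, adjusted p = 0.261). RPS15 (0.24), RPS19 (0.24) and RPL37A (0.19) followed. RPL10, which joins the large subunit last and completes its active site, stood lowest at -0.53 with 15.3 and 23.2 RPKM in normoxia and 10.8 and 15.3 in hypoxia. The groups met at 15.3 RPKM, and the difference was not called (SE 0.28, adjusted p = 0.247). RPS13 (-0.39), RPL27A (-0.27), RPS23 (-0.24) and RPL35A (-0.22) were next, all short of the threshold.

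After 6 days of hypoxia the core was again nearly level with normoxia of the same age, at a time when much of the transcriptome was not. RPS28 rose, and RPS14, RPL4 and RPL8 were among those that fell. In all 1 of 77 was higher and 4 were lower, against 23.9% and 18.3% of all tested rows. Of the 77, 10 had an unadjusted p under 0.05. Both hypoxia libraries lay above in 26 core genes and below in 18, against 41.3% and 34.1% of all rows. The median log2 fold change was 0.07, against 0.04 over all rows. The split depended on scaling: after quantile normalization no core gene rose and 16 fell, with a median of -0.17, after centring each library on its trimmed mean 1 rose and 7 fell, and after centring on the median of other rows 2 rose and 7 fell.

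RPS28, a small-subunit protein near the exit of the messenger RNA channel, was at 29.3 and 25.6 RPKM in normoxia and 33.4 and 36.2 in hypoxia at 6 days. The hypoxia libraries were the highest of all 12. The log2 fold change was 0.34 (SE 0.09, adjusted p = 0.0131), a call lost under quantile normalization and without library 10 or 12. RPS28 also rose from 6 hr to 6 days, by 0.48 in normoxia (adjusted p = 0.00114) and by 0.68 in hypoxia (adjusted p = 7.35e-05).

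RPL4, whose long loop lines the peptide exit tunnel, was at 149 and 148 RPKM in normoxia and at 101 and 117 in hypoxia at 6 days. The hypoxia libraries lay within the range of the earlier times and the normoxia libraries above it, with a log2 fold change of -0.45 (SE 0.16, adjusted p = 0.0427). RPL8, which lies beside the peptidyl transferase centre, was at 263 and 290 RPKM in normoxia and at 212 and 205 in hypoxia, without overlap. Its log2 fold change was -0.41 (SE 0.14, adjusted p = 0.0361). The calls of RPL4 and RPL8 each ended without library 7, 8, 9, 10, 11 or 12.

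RPS14, a small-subunit protein, had the lowest fold change at 6 days, and 1 library set it. Normoxia libraries 9 and 10 were at 336 and 722 RPKM and hypoxia libraries at 269 and 277. Library 10 stood above every other library of this gene, all of which lay between 244 and 351. The log2 fold change was -0.85 (SE 0.28, adjusted p = 0.0301), and without library 10 it was -0.30 (adjusted p = 0.287). None of the 5 calls at 6 days held in all 20 alternatives, and without library 10 no core gene was called in either direction. Without library 12 the 4 lower calls ended, without library 11 there was 1, and without library 7, 8 or 9 there were 2. The count of higher calls was 4 without library 5 or 6 and 2 without library 1 or 2.

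Among the other named genes at 6 days, RPS27 (0.54, adjusted p = 0.0608), RPL31 (0.43, adjusted p = 0.0581) and RPL14 (0.34, adjusted p = 0.0782) stood highest with RPS28. RPS27 was at 166 and 164 RPKM in normoxia and at 270 and 214 in hypoxia. RPL31 was at 345 and 364 RPKM in normoxia and at 468 and 486 in hypoxia. Neither pair of groups overlapped, and neither gene was called. RPLP0 (-0.48, adjusted p = 0.100) and RPL27A (-0.41, adjusted p = 0.210) were among the 5 lowest.

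The P stalk, made of RPLP0 with dimers of RPLP1 and RPLP2, recruits elongation factors to the ribosome. RPLP0 ran from 277 RPKM in library 2 to 575 in library 10, RPLP1 from 319 to 421 and RPLP2 from 308 to 460. RPLP1 and RPLP2 were highest in library 2, the library in which RPLP0 was lowest. None of the 3 was called in hypoxia at any time, and only RPLP0 was called in normoxia from 6 hr to 6 days (0.64, SE 0.22, adjusted p = 0.0282). That call ended in 5 of 20 alternatives, among them without library 2 (0.29, adjusted p = 0.234), library 9 (0.70, adjusted p = 0.0682) or library 10 (0.58, adjusted p = 0.124).

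RPL5 and RPL11 form a particle with the 5S ribosomal RNA that, when ribosome assembly fails, binds MDM2. RPL5 lay between 252 and 419 RPKM and RPL11 between 248 and 408, in both cases lowest in library 2 and highest in library 11. Neither was called in hypoxia: at 6 days the log2 fold changes were 0.00 (SE 0.16) and 0.28 (SE 0.15, adjusted p = 0.172). CDKN1A, a cell-cycle inhibitor, rose in hypoxia at 48 hr (1.19, adjusted p = 0.000198) and 6 days (1.84, adjusted p = 2.83e-06). MDM2 was not called in hypoxia at any time.

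Whether the effect of hypoxia itself differed between times was tested as a contrast of the 2 differences. Between 48 hr and 6 hr no core gene was called, against 0.528% of all rows called, and 5 of 77 had an unadjusted p under 0.05 in limma. Between 6 days and 48 hr none was called, against 10.7% of all rows called, and 1 core gene had an unadjusted p under 0.05. Between 6 days and 6 hr 2 core genes differed, RPS9 and RPL8, both lower, against 11.2% of all rows higher and 10.2% lower. Quantile normalization gave 16 lower genes in this last test, and the other 2 scalings 4 each.

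RPS9, a small-subunit protein that helps to check the fit between codon and anticodon, was at 161 and 140 RPKM in normoxia and 237 and 189 in hypoxia at 6 hr, but at 268 and 278 in normoxia and 237 and 198 in hypoxia at 6 days. The hypoxia libraries hardly differed between the times, and the normoxia libraries rose past them. The difference of effects was -0.83 (SE 0.21, adjusted p = 0.0174). RPL8 ran the same way, with 166 and 172 RPKM in normoxia and 245 and 198 in hypoxia at 6 hr, and a difference of -0.79 (SE 0.20, adjusted p = 0.0173). Both calls ended without library 3 (adjusted p = 0.0650 for RPS9 and 0.0649 for RPL8), library 10 (0.0607 and 0.0699) or library 12 (0.0785 and 0.0636). Core genes that differed numbered 4 without library 2 and 5 without library 4.

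More core genes were called from 6 hr to 6 days of normoxic culture than in any comparison of hypoxia with normoxia. The same held for all tested rows, with 6771 calls over that time and 5039 in hypoxia at 6 days. In normoxia at 6 days against 6 hr, 40 of 77 core genes rose and 1 fell, against 30.9% and 25.9% of all tested rows, so higher calls were more frequent than in the table as a whole and lower calls nearly absent. Both 6 day libraries lay above both 6 hr libraries in 55 core genes and below in 4, against 40.5% and 34.3% of all rows. The median log2 fold change was 0.40, against 0.04 over all rows. Large and small subunits moved alike, with 25 of 46 and 15 of 31 genes higher and medians of 0.40 each. Calls fell to 23 without library 2 or without library 10 and to 24 without library 9, and 16 genes were called in all 20 alternatives, among them RPL3, RPL12, RPS18, RPS19 and RPL41.

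RPL3 was at 188 and 130 RPKM in normoxia at 6 hr, 207 and 214 at 48 hr, and 344 and 357 at 6 days. The 6 day libraries stood clear of all earlier normoxia libraries, a log2 fold change of 1.16 (SE 0.18, adjusted p = 0.000201). RPS19 was at 71.8 in both libraries of 6 hr, 116 and 133 at 48 hr, and 156 and 140 at 6 days, a log2 fold change of 1.04 (adjusted p = 0.00167). Most of that rise was already there at 48 hr.

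RPS18, a protein of the small-subunit head, was at 315 and 225 RPKM at 6 hr and at 553 and 523 at 6 days in normoxia, a log2 fold change of 1.01 (adjusted p = 0.0012). RPL12, part of the stalk base, was at 207 and 146 RPKM at 6 hr and at 340 and 331 at 6 days, a log2 fold change of 0.95 (adjusted p = 0.000549). In both genes the times did not overlap. The start windows of RPS18 and RPL12 given above carry tracts of 11 and 6 pyrimidines.

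RPL36A was the only core gene that fell with time in normoxia. It was at 3.07 and 4.11 RPKM at 6 hr, 3.66 and 3.47 at 48 hr, and 2.34 and 2.49 at 6 days, a log2 fold change of -0.48 (SE 0.13, adjusted p = 0.00965). The call ended without library 2 (-0.29, adjusted p = 0.0799) or library 9 (-0.44, adjusted p = 0.0564), and without library 1 there were 2 lower core genes. RPS26 (-0.24), RPLP2 (-0.23) and RPS15 (-0.18) stood next lowest and did not pass. Of 32 core genes that rose and have a promoter entry, 25 carry a tract at the start (78.1%), against 20 of 29 that were not called (69%).

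The step from 6 hr to 48 hr in normoxia looked large in the values but gave no call. Both 48 hr libraries lay above both 6 hr libraries in 53 of 77 core genes, against 32.3% of all rows. In limma 34 had an unadjusted p under 0.05. The share of all rows at that level is not given here, so the 34 do not by themselves set the core apart. The median log2 fold change was 0.33, against 0.08 over all rows. No core gene passed after adjustment in limma, where only 0.0922% of all rows did, and 20 passed when library 1 was left out. From 48 hr to 6 days, a comparison added after the values had been seen, 6 core genes rose and 4 fell, against 27% and 32.4% of all rows, with a median of 0.06. Other scalings gave 14 higher and 3 lower, or 23 higher and 2 lower after quantile normalization.

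In that later step RPL3 again rose most (0.73, adjusted p = 0.00386), followed by RPL12 (0.64, adjusted p = 0.00624) and RPL10A (0.51, adjusted p = 0.00601). RPS26, which sits at the exit of the messenger RNA channel, fell from 24.2 and 24 RPKM at 48 hr to 15.4 and 16.1 at 6 days, a log2 fold change of -0.60 (SE 0.15, adjusted p = 0.0051). The times did not overlap, and this call and that of RPL3 were made in all 20 alternatives. RPS15 (-0.61), RPL36A (-0.48) and RPL21 (-0.39) were also called lower. The call of RPS15 (adjusted p = 0.0453) ended in 11 of 20 alternatives, all 3 other scalings included, and without library 6 its value was -0.24 (adjusted p = 0.407). That of RPL21 ended in 5, with -0.14 under quantile normalization, and also without library 5, 6 or 10. The calls of RPL12 without library 5, RPL10A without library 10 and RPL36A without library 5 or 9 ended as well.

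Under hypoxia RPL3 led the genes that rose from 6 hr to 6 days. From 6 hr to 48 hr no core gene was called, against 5.84% of all rows called, and none had an unadjusted p under 0.05 in limma. From 6 hr to 6 days 20 rose and 1 fell, against 35.1% and 29.8% of all rows, and quantile normalization gave 13 higher and 5 lower. RPL3 went from 223 and 185 RPKM at 6 hr to 457 and 383 at 6 days, a log2 fold change of 1.04 (SE 0.18, adjusted p = 0.00034). Without library 4 there were 6 higher and 5 lower calls, with the median at 0.06, and without library 11 there were 8 higher and 2 lower. From 48 hr to 6 days, again added after the values had been seen, 12 core genes rose and 4 fell, against 30.4% and 32.4% of all rows, with 18 higher and 2 lower after quantile normalization and 21 and 4 after either centring. RPS27 and RPL3 rose alike (0.66 each, adjusted p = 0.0181 and 0.00648). The call of RPS27 ended without library 7, 8 or 11 and that of RPL3 without library 8 or 11. Without library 11 the values were 0.49 and 0.53. Of the 16 core calls in this step only RPL18 (-0.40), RPS26 (-0.61) and RPS28 (0.52) were made in all 20 alternatives. The normoxia and hypoxia courses share no libraries, whereas comparisons with the same 6 hr or 48 hr libraries do, and their calls are not independent.

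Among the paralogs RPL22L1 moved most. It can take the place of RPL22 in the large subunit. Its levels in normoxia were 35 and 34.9 RPKM at 6 hr, 56.9 and 67.8 at 48 hr, and 34.4 and 26.7 at 6 days. In hypoxia they were 51.5 and 50.8 at 6 hr, 48.2 and 49.5 at 48 hr, and 22.5 and 15.7 at 6 days. Hypoxia thus stood above normoxia at 6 hr and below it at both later times, and library 12 was the lowest of all.

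The log2 fold change of RPL22L1 in hypoxia was 0.54 at 6 hr (adjusted p = 0.104), -0.34 at 48 hr (adjusted p = 0.203) and -0.67 at 6 days (SE 0.16, adjusted p = 0.00667). The call at 6 days ended without library 9 (-0.49, adjusted p = 0.0701) or 12 (-0.42, adjusted p = 0.0709). The effect at 6 days was lower than that at 6 hr by 1.22 log2 units (SE 0.23, adjusted p = 0.00496), a call made in all 20 alternatives. Against 48 hr it fell by 1.02 in normoxia (adjusted p = 0.00026) and by 1.36 in hypoxia (adjusted p = 3.15e-05) at 6 days. RPL22 itself moved the other way with time, from 37.8 and 34.1 RPKM to 48.9 and 42.6 in normoxia (0.34, adjusted p = 0.0112, lost without library 9), and was not called in hypoxia at any time.

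**Figure D3:**
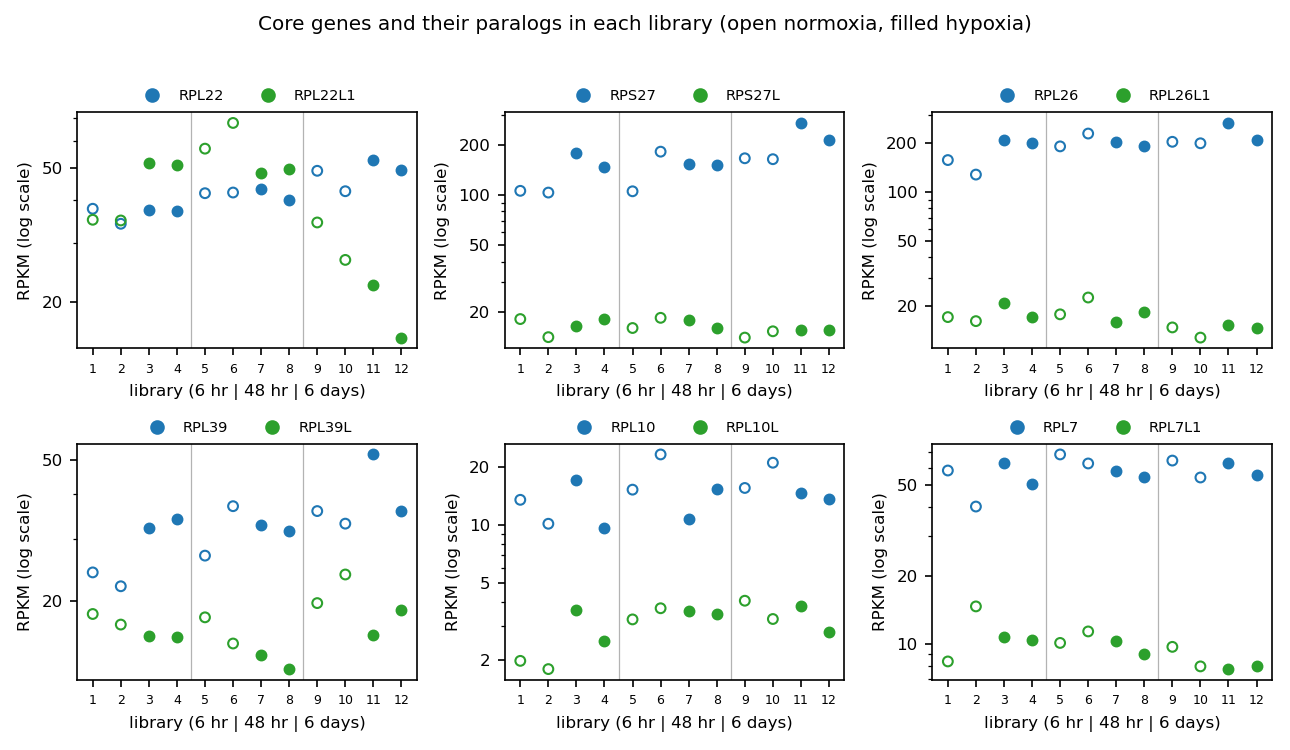
RPKM on a log axis of 6 core genes (blue) and their paralogs (green) in libraries 1 to 12, open for normoxia and filled for hypoxia, with grey lines dividing the times. RPL22L1 starts level with RPL22, stands above it in libraries 3 to 8 and below it at 6 days, to 15.7 RPKM in library 12, while the other 5 paralogs stay under their core genes in every library.

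The other paralogs were lower than their core genes and moved less. RPL10L, a copy used in the testis, stood at 1.98 and 1.80 RPKM in normoxia at 6 hr and at 4.06 and 3.27 at 6 days (0.80, adjusted p = 0.00184), and was not called in hypoxia. RPL39L, another testis paralog, lay between 12.9 and 23.8 RPKM. It was below normoxia in hypoxia at all 3 times, by 0.16, 0.29 and 0.30 log2 units, and never passed (adjusted p = 0.558, 0.154 and 0.0613). From 48 hr to 6 days it rose in normoxia (0.38, adjusted p = 0.0178) and in hypoxia (0.36, adjusted p = 0.0216), calls that ended without library 6 or 10 and without library 8 or 12. RPS27L lay between 14 and 18.4 RPKM with no call at any time. RPL26L1 (12.8 to 22.6 RPKM) and RPL7L1 (7.73 to 14.6 RPKM) were not called in hypoxia, and RPL26L1 fell in normoxia from 48 hr to 6 days (-0.53, adjusted p = 0.00517), a call lost under quantile normalization (-0.30) and without library 6 (-0.36, adjusted p = 0.0622) or 10. RPL3L, a muscle paralog, did not reach 0.12 RPKM in any library and was not tested.

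Of the 6 pseudogenes, 5 were tested. RPL23P8 ran from 8.42 RPKM in library 2 to 28.3 in library 11, RPS10P7 from 1.44 to 5.29, RPL29P2 from 1 to 4.46 and RPL13P5 from 2.38 to 4.02. None of these 4 was called in hypoxia. In normoxia at 6 days against 6 hr RPS10P7 (0.70, adjusted p = 0.0280) and RPL29P2 (0.89, adjusted p = 0.0128) rose, with RPL23P8 at 0.69 (adjusted p = 0.0680). Without library 2 the values were 0.43 for RPS10P7 (adjusted p = 0.204) and 0.43 for RPL29P2 (adjusted p = 0.121), and both calls also ended without library 10, that of RPS10P7 without library 9 too. Reads from the parent genes may be counted in these rows. RPL32P3 passed the filter only through the hypoxia libraries of 6 days, at 1.28 and 1.44 RPKM against 0.695 and 0.844 in normoxia, so it had to differ there and its call (0.55, adjusted p = 0.00297) is only a description. RPS7P5 stayed at or under 0.876 RPKM and was not tested.

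GNB2L1, FAU and RPL36AL, which lie outside the rule, were not called in hypoxia at any time. GNB2L1, the scaffold protein now called RACK1, lay between 296 and 559 RPKM, FAU (the precursor of RPS30) between 125 and 209, and RPL36AL between 16.6 and 36.4. RPL36AL, the paralog of RPL36A, fell in normoxia at 6 days against 6 hr (-0.68, adjusted p = 0.00033), from 29.4 and 26.9 RPKM to 16.6 and 18.3, and GNB2L1 rose (0.59, adjusted p = 0.0145).

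Over time most genes that build ribosomes fell while many ribosomal proteins rose. Of 29 tested chaperones and late maturation factors, 23 fell and 2 rose in normoxia at 6 days against 6 hr, with a median of -0.76, against 25.9% and 30.9% of all tested rows. Against 48 hr 27 fell and 2 rose, beside 32.4% and 27% of all rows. RRS1, which loads the 5S particle (-2.12, adjusted p = 2.05e-07), MRTO4, which readies the P stalk site (-1.86, adjusted p = 4.12e-07), and GRWD1, a chaperone of RPL3 (-1.62, adjusted p = 7.73e-07), were among the lowest against 48 hr. RPL3 rose in that same comparison. Of 17 genes for ribosomal RNA transcription, 12 fell and none rose against 6 hr, beside the same 25.9% and 30.9% of all rows, with a median of -0.47, led by CD3EAP, a subunit of RNA polymerase I (-1.97, adjusted p = 1.78e-07). The core medians beside these were 0.40 against 6 hr and 0.06 against 48 hr.

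In hypoxia 1 of these 29 builders rose at 6 hr, against 3.39% of all tested rows. At 48 hr 1 rose and 3 fell, against 9.24% and 2.89%, and at 6 days 1 rose and 9 fell, against 23.9% and 18.3%. The gene that rose each time was RIOK3, a kinase of small-subunit maturation (0.53, 0.85 and 1.67, adjusted p = 0.0111, 0.000176 and 4.27e-07). GRWD1 fell at 6 days (-0.75, adjusted p = 0.000326), and LTV1, an export and assembly factor of the small subunit, at 48 hr (-0.51, adjusted p = 0.00175). Of the 17 genes for ribosomal RNA transcription none was called at 6 hr, 2 fell at 48 hr, and 3 rose and 6 fell at 6 days.

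**Figure D4:**
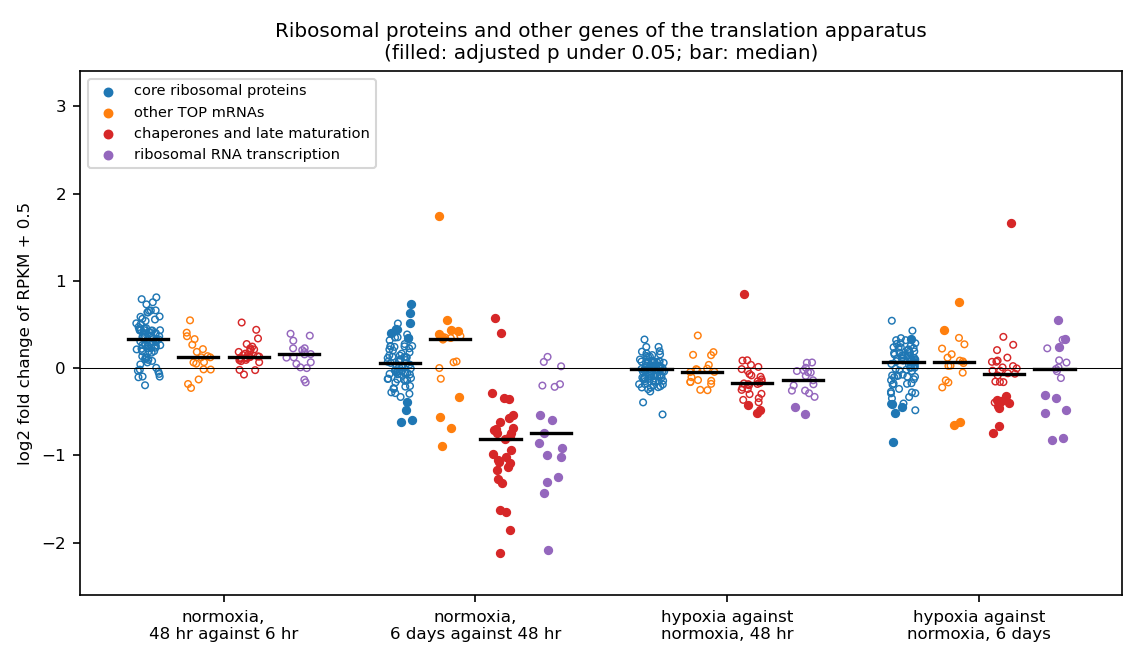
Log2 fold change of RPKM + 0.5 for core ribosomal proteins, other TOP messenger RNAs, chaperones and late maturation factors, and genes of ribosomal RNA transcription in 4 comparisons, filled where the adjusted p was under 0.05, with the median as a bar. In normoxia from 48 hr to 6 days the medians of the last 2 lists lie at -0.81 and -0.74 while that of the core is 0.06.

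Other TOP messenger RNAs were also listed, and their start tracts were not checked here. Of 18, 7 rose and 3 fell in normoxia at 6 days against 6 hr, with a median of 0.26, against 30.9% and 25.9% of all tested rows, so these shares lie near the background. EEF2 (0.76, adjusted p = 0.00152) and EEF1A1 (0.70, adjusted p = 0.0024), both elongation factors, rose, as did GAS5, a non-coding host of small nucleolar RNAs (2.11, adjusted p = 2.13e-07), and LARP1, which binds and holds TOP messenger RNAs, fell (-0.70, adjusted p = 0.000179). None was called in hypoxia at 6 or 48 hr. At 6 days TPT1 (0.76, adjusted p = 0.0026) and EIF4B (0.44, adjusted p = 0.00438) rose and GAS5 (-0.65, adjusted p = 0.00102) and EEF1D (-0.62, adjusted p = 0.0121) fell.

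Some genes that control mTORC1 rose in hypoxia at 6 hr, when 2 core genes rose, and at 48 hr, when none did. DDIT4, an inhibitor of mTORC1, was at 18.2 and 15.3 RPKM in normoxia and 74 and 63.2 in hypoxia at 6 hr (2.003, adjusted p = 2.28e-06), and at 19.3 and 18.3 against 116 and 105 at 48 hr (2.52, adjusted p = 1.7e-07). SESN2, a leucine sensor that restrains mTORC1, rose at 48 hr (1.41, adjusted p = 1.45e-06). In normoxia at 6 days DDIT4 had itself reached 149 and 152 RPKM and SESN2 15.9 and 16.9, against 2.84 and 3.03 at 48 hr for SESN2. In all, 2 of 16 genes of this list rose at 6 hr and 3 at 48 hr, against 3.39% and 9.24% of all tested rows. At 6 days 5 rose and 4 fell, against 23.9% and 18.3%.

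Introns of ribosomal protein genes also carry small nucleolar RNAs, which guide chemical changes of ribosomal RNA and are released when the host transcript is spliced. By RefSeq spans, 55 of 388 SNOR and SCARNA rows lie within 28 member genes, with the strand not checked. At 6 days of hypoxia 21 of these 55 rose and none fell, with a median log2 fold change of 0.63, against 23.9% of all tested rows higher. Their 28 hosts had a median of 0.09, with 1 higher and 2 lower, and the higher one is the pseudogene RPL32P3, whose call is only a description. The other 281 tested rows of this kind had 144 higher, 1 lower and a median of 0.77, so the rise is not shown to be particular to ribosomal protein hosts. At 6 and 48 hr none of the 55 was called, with 6 and 2 at an unadjusted p under 0.05 in limma. Of the other 281 rows 36 and 24 were under it.

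SNORD54, in an intron of RPS20, was at 546 and 547 RPKM in normoxia and at 1326 and 1167 in hypoxia at 6 days, without overlap (log2 fold change 1.19, SE 0.25, adjusted p = 0.00297), while RPS20 was at -0.29. SNORD72, in RPL37, was at 270 and 198 RPKM against 849 and 750 (1.78, SE 0.43, adjusted p = 0.00684), although library 1 of normoxia also reached 734. Short RNAs and MTRNR2L rows together held 77.4 and 78.1% of summed RPKM in the hypoxia libraries of 6 days, the highest of all 12, and the part of this in the result was not tested.

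**Figure D5:**
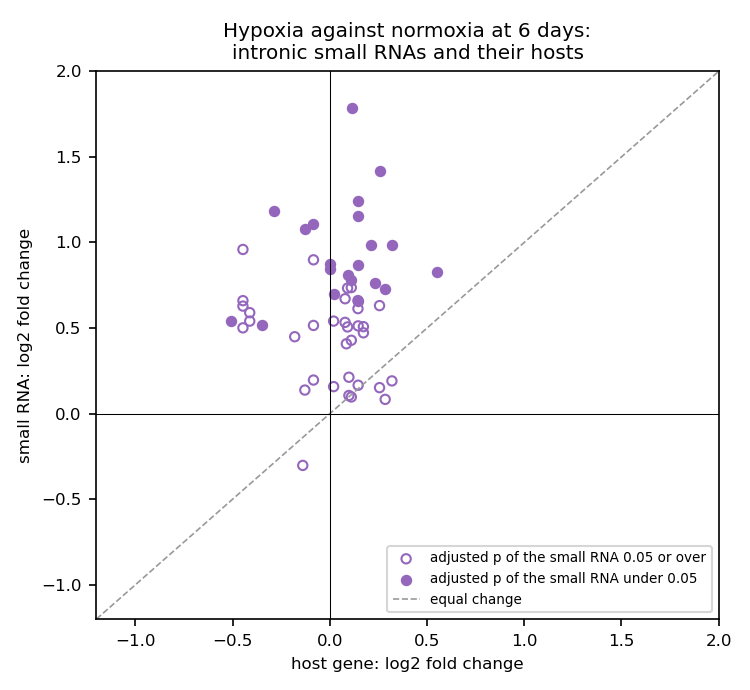
Log2 fold change in hypoxia at 6 days of 55 small nucleolar RNAs (vertical axis) against that of their host ribosomal protein genes (horizontal axis), filled where the adjusted p of the small RNA was under 0.05, with a dashed line of equal change. Of the 55 points, 50 lie above the dashed line, all 21 filled ones among them, with hosts between -0.51 and 0.55.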

How the data were processed

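RNA of A2780 cells was sequenced in 12 libraries, 2 for each of 6 oxygen and time groups. Per the labels' protocols, total RNA was depleted of ribosomal RNA and read on a SOLiD 5500xl as 75-base forward reads. The deposited gene table holds RPKM computed by the authors, 1 column per library, and a second deposited table holds RPKM of precursor microRNAs, used here for depth only. Per the submitters' processing notes, Partek 6.6 and hg19 were used. The aligner, the transcript models, the treatment of reads that match several genes, and the read total used for scaling were not stated in any source used, and read counts behind the gene table were not analysed here.

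RPKM are not counts, so tests used limma (version 3.58.1, under R 4.3.3). The input was log2(RPKM + 0.5) of the 11933 rows that reached 1 RPKM in at least 2 of 12 libraries, with a mean for each of the 6 groups, a trended prior, and two-sided p-values adjusted by Benjamini and Hochberg over all of these rows. An adjusted p under 0.05 was called, with 6 residual degrees of freedom. All 6 groups share 1 estimate of the spread. Of the 90 members, 88 were tested. Depth was read from the steps of low values in the precursor table, where 96.5 to 99.3% of values were whole reads within 0.05 reads.

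Genes were named by rule: the P stalk and 5S particle genes, the 5 highest and 5 lowest levels, the 5 highest and 5 lowest fold changes in each hypoxia comparison, the 4 highest and 4 lowest with time in normoxia, up to 5 called in each difference between times, all members outside the core, up to 4 called genes of each other list, and small RNAs as examples. Some genes that this rule takes are not reported here by name or value and stay in the counts, and the heat map leaves out 3 core genes. LARP1 is in the lists of TOP messenger RNAs and of mTORC1 control. Members and lists were chosen with earlier results of these data known, and the comparisons of 6 days with 48 hr within 1 oxygen level were added after values had been seen. Promoter sequences and gene spans came from RefSeq on GRCh38.p14. On simulated data in which 200 of 11933 genes were changed, the test at 6 hr of hypoxia recovered 54% of genes changed by 0.5 log2 units and 91% of those changed by 1. At 48 hr these shares were 68 and 92%, and at 6 days 70 and 94%. The simulated noise of a row had the same spread in all groups, so these shares cannot compare power between times. It was also independent between rows, so shifts shared by core genes within a library were not simulated. Alternatives were other pseudocounts, filters and scalings, a fit on only the groups compared, and leaving out each library. Figures were drawn with matplotlib 3.10.9.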

Additional observations from a re-analysis of the deposited data

Results flagged for a closer look

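For 3 members the effect of hypoxia differed between times in a direct test of that difference (limma, adjusted p under 0.05 over all tested rows). For RPL22L1 the log2 effect at 6 days was lower than at 6 hr, with a difference of -1.22. For RPS9 this difference was -0.826 and for RPL8 -0.786. RPL32P3 is given as a description only, since this pseudogene passed the filter through the hypoxia libraries of 6 days alone and had to be high there. Its effect at 6 days was above that at 48 hr by 0.622.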

How the results depend on the processing

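No paired analysis was possible because the libraries are numbered 1 to 12 and the groups share no replicate number, so no fit with a replicate block or pairing was made. Counts are of the 77 core genes. Of 2 genes higher in hypoxia at 6 hr, 1 was called with a pseudocount of 1, and 0 with no filter or with only the groups compared. Of 4 lower at 6 days, 1 was called with no filter, and 16 were after quantile normalization, 7 after trimmed mean centring and 7 after centring on the median of other rows. The 1 higher gene at 6 days became 0, with quantile normalization, 2 with centring on that median, and 4 with only the groups compared. The 2 genes whose effect differed between 6 days and 6 hr became 16 with quantile normalization and 4 with either centring. The median share of summed RPKM rose from 2.38% to 8.51% with short RNAs and MTRNR2L left out of the total. Leaving out 1 library at a time gave 0 to 7 genes higher and 0 to 1 lower in hypoxia at 6 hr, 0 higher and 0 lower at 48 hr, and 0 to 4 higher and 0 to 6 lower at 6 days. It gave 0 for the difference between 48 hr and 6 hr, 0 to 1 between 6 days and 48 hr, and 0 to 5 between 6 days and 6 hr. For time it gave 0 to 20 changed genes in normoxia at 48 hr and 23 to 42 at 6 days, and in hypoxia 0 to 1 and 10 to 26. With quantile normalization 4 calls changed sign: RPL32P3 in normoxia at 6 days against 6 hr (-0.11) and against 48 hr (-0.0896), and RPS12 (-0.24) and RPS4X (-0.14) in hypoxia at 6 days against 6 hr. Apart from omissions that removed samples, the cause of these changes was not tested. If the gene table shares the read totals taken from the precursor values, depth limits only its lowest rows, such as RPL3L.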
